A study of Mus musculus with 12 samples.

Results

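A set of 542 regions bound by MOF in visceral white adipose tissue of Mof+/+ mice lay at promoters of noncoding RNA genes and at no promoter of a protein-coding gene. They were chosen from the 19773 peaks of the Mof+/+ list, of which 19579 lay on chromosomes 1 to 19, by 2 conditions on position alone. The peak had to come within 1 kb of a transcript start of a gene of type lincRNA, antisense, processed_transcript, sense_intronic or bidirectional_promoter_lncRNA, and it had to stay over 1 kb away from every transcript start of a protein-coding gene in the GENCODE mouse M21 annotation. No measured value entered that choice. The coding promoter peaks used for comparison numbered 10027, and 1200 of those also had a noncoding start within the same distance. A further 8676 peaks had no annotated start within 1 kb and are called distal.

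The mice were C57BL/6 animals of 8 weeks on a standard diet, either Mof+/+ or Mof+/-, the latter carrying a single working copy of Mof in all cells rather than in a chosen cell type. Chromatin of the fat pad was cut with the restriction enzyme CviKI-1, sonicated, and precipitated with an antibody against MOF or against histone H3, or kept as input. The labels gave 12 libraries in 6 groups of 2. MOF peaks were deposited as 1 list per genotype, called against input, so no value below has a spread between animals, and no test was made.

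MOF, also named KAT8, is the acetyltransferase that places the acetyl mark on lysine 16 of histone H4. It works within the MSL complex and the NSL complex, and the latter is known for sitting at promoters of broadly expressed genes. Noncoding RNA genes are often transcribed from promoters of their own, some rich in CpG like those of housekeeping genes and others poor in CpG and close to enhancers. Many serve as hosts, whose introns or exons carry the small nucleolar RNAs or microRNAs that are cut from the transcript.

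The stretches of sequence under 6 summits span the range of base composition met among the regions. Each runs 100 bases to either side of the summit on the plus strand of GRCm38, with every CpG in capitals. The first 3 are at the strongest region (1810026B05Rik), at the most CpG-dense of the named regions (Mir17hg) and at a small nucleolar RNA host that holds the letters CCGGAAGT (Snhg20). The others are at the strongest region covered in both genotypes (Malat1), at a CpG-poor microRNA host (Mir142hg) and at a region without any CpG (Gm43388).
1810026B05Rik, chr7:73557982-73558182: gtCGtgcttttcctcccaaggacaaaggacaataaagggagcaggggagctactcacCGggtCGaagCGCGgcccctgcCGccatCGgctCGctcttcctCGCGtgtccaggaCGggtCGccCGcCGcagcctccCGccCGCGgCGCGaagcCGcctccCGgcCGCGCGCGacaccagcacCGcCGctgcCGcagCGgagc
Mir17hg, chr14:115041532-115041732: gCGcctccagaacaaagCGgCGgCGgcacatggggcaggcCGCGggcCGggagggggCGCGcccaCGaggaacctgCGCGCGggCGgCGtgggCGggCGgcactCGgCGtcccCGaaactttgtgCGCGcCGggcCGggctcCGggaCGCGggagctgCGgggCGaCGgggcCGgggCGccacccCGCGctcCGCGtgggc
Snhg20, chr11:117076752-117076952: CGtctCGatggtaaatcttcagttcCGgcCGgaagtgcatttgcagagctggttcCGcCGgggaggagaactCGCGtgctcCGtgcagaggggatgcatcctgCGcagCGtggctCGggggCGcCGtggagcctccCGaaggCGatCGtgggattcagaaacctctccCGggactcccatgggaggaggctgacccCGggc
Malat1, chr19:5802734-5802934: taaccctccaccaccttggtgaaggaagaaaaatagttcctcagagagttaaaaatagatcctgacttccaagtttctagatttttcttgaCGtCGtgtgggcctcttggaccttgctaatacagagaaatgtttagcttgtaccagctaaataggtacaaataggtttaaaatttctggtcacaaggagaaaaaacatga
Mir142hg, chr11:87754986-87755186: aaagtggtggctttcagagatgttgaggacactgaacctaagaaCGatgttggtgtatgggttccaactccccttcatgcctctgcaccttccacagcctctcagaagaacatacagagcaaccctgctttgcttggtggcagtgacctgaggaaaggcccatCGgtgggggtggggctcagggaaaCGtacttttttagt
Gm43388, chr16:19237205-19237405: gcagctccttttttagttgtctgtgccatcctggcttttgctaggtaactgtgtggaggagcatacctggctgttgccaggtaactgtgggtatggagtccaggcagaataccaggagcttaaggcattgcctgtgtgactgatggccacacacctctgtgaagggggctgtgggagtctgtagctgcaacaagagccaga

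These stretches held 29 CpG at 1810026B05Rik, 36 at Mir17hg, 19 at Snhg20, 2 at Malat1, 3 at Mir142hg and 0 at Gm43388. Regions at noncoding starts were thus of unlike composition, which is taken up again beside the comparison of CpG density.

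Strength was read as fold enrichment at the summit, the ratio of fragments in the MOF library to the expected background, which the peak caller forms after adding 1 to both, so that it lies below the plain ratio. The 542 regions had a median fold enrichment of 3.50, with the middle of the distribution from 2.90 to 4.19 and the extremes at 2.20 and 10.2. Coding promoter peaks had a median of 3.76 and distal peaks one of 3.10. Noncoding starts thus lay between them, 0.10 below coding promoters on the log2 scale. The fold enrichments rested on few fragments, a median of 16 at the summit against 18 for coding promoters and 15 for distal peaks. A single region therefore has a wide interval. Its 95% exact Poisson interval, given in parentheses beside many of the named regions below, covers counting error only, and fragments multiplied by PCR would make it too narrow. Because the counts are small, 416 of the 542 regions shared their fold enrichment with another region, 34 of them at 1 value. The regions were 661.5 bp wide at the median, against 749 bp for coding promoters and 499 bp for distal peaks. Of the 542, 302 (55.7%) had a q-value of at most 0.001, against 52.5% of all peaks, and 54 (9.96%) were among the strongest peaks by p-value, a class that held 10.8% of all peaks.

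**Figure D1:**
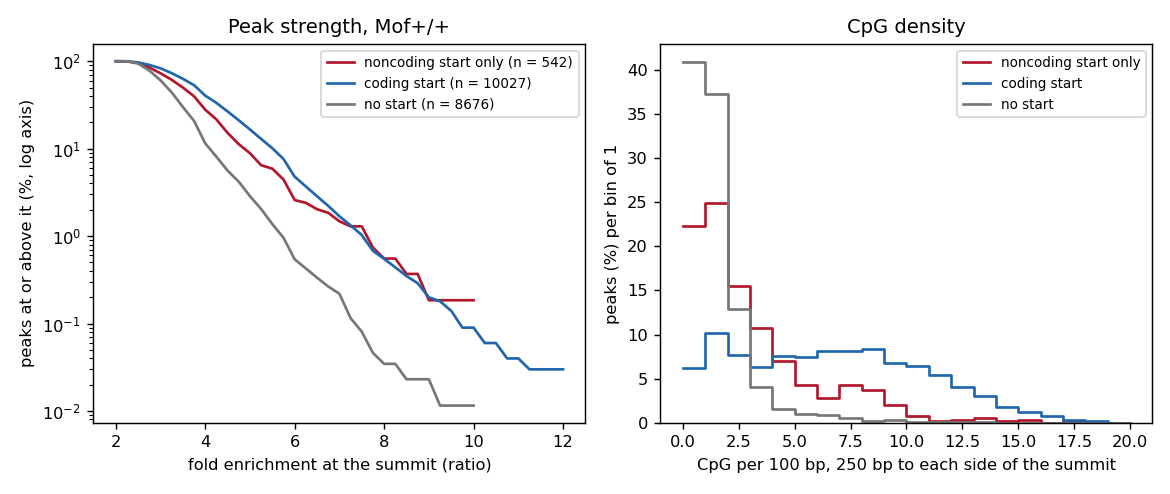
Left, share of Mof+/+ peaks (%, log axis) at or above each fold enrichment for the 542 regions at noncoding starts only, 10027 coding promoter peaks and 8676 distal peaks. Right, share of peaks per bin of 1 CpG per 100 bp within 250 bp of the summit, where the regions at noncoding starts (median 2.20) lay between distal peaks (1.198) and coding promoters (6.59).

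In base composition the classes stood in the same order. The median CpG density within 250 bp to each side of the summit was 2.20 CpG per 100 bp at noncoding starts, 6.59 at coding promoters and 1.198 at distal peaks. Island-like sequence, taken here as an observed over expected CpG of at least 0.6 with at least 50% GC, was found at 116 of the 542 regions, which is 21.4% (95% Wilson interval 18.2 to 25.1%). It was found at 63.3% of coding promoter peaks and at 3.42% of distal peaks. The fold enrichment was 4.05 and the width 941.5 bp at the median of the 116 island-like regions. For the other 426 these medians were 3.32 and 583 bp. Where a coding and a noncoding start shared a peak, the share of island-like sequence was 74.7% and the median fold enrichment was 3.98. CviKI-1 cuts at RGCY, and its sites numbered 24.0 per kb at the median at noncoding starts, between distal peaks (22.0) and coding promoters (27.9). Cutting density moved with the classes in this way, and its part in the fold enrichments was not tested.

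Short motifs were counted as exact letters on both strands of the same stretch around each summit. The Sp letters GGGCGG were found in 31.7% of the 542 regions, 61.5% of coding promoters and 13.8% of distal peaks. Among island-like sequence only, the share was 75.9% at noncoding starts and 80.6% at coding promoters. The ETS letters CCGGAAGT, shown above at Snhg20, were found in 2.77%, 6.63% and 1.00% of the 3 classes, and the Nrf1 letters GCGCATGC in 1.85%, 3.98% and 1.07%. The YY1 letters AAGATGGCG had shares of 1.66%, 3.46% and 0.334%, and the CRE letters TGACGTCA shares of 1.48%, 2.07% and 0.392%. For each of these CpG-holding letters the noncoding starts lay between distal peaks and coding promoters. The order was different for letters without CpG. The TATA letters TATAAA were found at 103 of the 542 regions, in 8.65% of coding promoters and in 22.7% of distal peaks. The PU.1 letters GAGGAAGT were found in 4.61%, 4.00% and 6.65% of the 3 classes, and the NF-Y letters CCAAT in 45.8%, 37.1% and 44.1%. The ETS and PU.1 letters share their last 6 bases, GGAAGT, and a match describes the sequence only.

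Summits were less tightly set on the start at noncoding genes than at coding genes. The median distance from summit to the nearest noncoding start was 418.5 bp, against 205 bp at coding promoters. Of the 542 summits, 183 (33.8%) lay within 250 bp of the start, against 56.8% at coding promoters, and 293 (54.1%) lay downstream of it, against 62.3%. A further 87 (16.1%) were over 1 kb from the start, since only the peak's edge had to come within that distance. The 183 regions with a summit within 250 bp had a median fold enrichment of 3.54 and a median CpG density of 3.79 per 100 bp, and 37.7% of them were island-like.

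**Figure D2:**
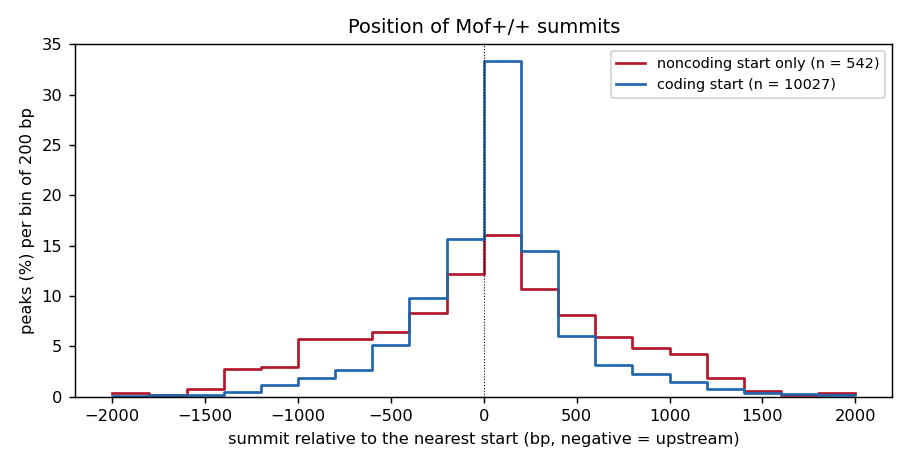
Share of Mof+/+ summits (%) per bin of 200 bp by distance from the nearest start (bp, negative is upstream) for the 542 regions at noncoding starts only and the 10027 coding promoter peaks. Coding summits are gathered just downstream of the start, while those at noncoding starts are spread more widely, with 33.8% against 56.8% within 250 bp.

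The median distance to the nearest protein-coding start was 14966 bp, the closest region lay 1009 bp and the farthest 437310 bp away, and 319 (58.9%) lay over 10 kb away. With starts of genes in place of transcripts in the choice, the share was 45.1% of 623 regions. The nearest protein-coding gene had a promoter peak of its own for 422 regions (77.9%). For distal peaks that share was 84.7%, and 42.7% of all protein-coding genes had one. The summit fell in the body of a coding gene for 154 regions (28.4%), in an exon of a noncoding gene outside coding genes for 113, in an intron of one for 149, and in no annotated gene for 126. The median fold enrichment was 3.76 in noncoding exons and 3.10 for the 91 summits in coding gene bodies away from coding exons, UTRs and noncoding exons. On the chromosomes, the regions numbered from 0.110 per Mb on chromosome 18 to 0.407 per Mb on chromosome 19. Starts of other gene types, which the choice had left aside, were within 1 kb of 63 regions (11.6%), among them snoRNA genes at 17 and microRNA genes at 9.

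By type of gene, 289 regions were at lincRNA genes, 145 at antisense genes, 92 at processed transcripts, 14 at sense intronic genes and 2 at bidirectional promoter genes. Their median fold enrichments were 3.54, 3.32, 3.54, 3.51 and 3.26. Among the 3 types with the most regions, island-like sequence was at 31.5% of those at processed transcripts, 21.8% of those at lincRNA genes and 15.9% of those at antisense genes. The 542 regions were named after 466 different genes, and 114 regions lay within 1 kb of another of the set, so that neighbouring regions are not separate observations. Counted by gene, 1534 of 9392 annotated noncoding genes of these types (16.3%) had a Mof+/+ peak within 1 kb of a start. For 488 genes (5.20%) it was one of the 542 regions, and for the other 1046 the only such peaks also lay near a coding start. Bidirectional promoter genes had a peak most often (66.8% of 190 genes), then processed transcripts (34.3%), antisense genes (21.9%), lincRNA genes (9.29%) and sense intronic genes (8.26%).

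The strongest region was at 1810026B05Rik (chr7:73556740-73560064, GRCm38), a noncoding gene next to the chromatin remodeller gene Chd2, whose start lay 14910 bp away. Its fold enrichment was 10.2 (95% exact Poisson interval 7.48 to 13.5), from 45 fragments, with the summit 65 bp downstream of a start in an exon and 15.2 CpG per 100 bp. Another 3 regions in the same gene had fold enrichments of 3.32, 3.29 and 2.74, all below the lower bound of the first. The Mof+/- list held no peak over any of the 4.

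Malat1 and Neat1, the neighbouring genes of abundant nuclear RNAs on chromosome 19, were both among the 12 strongest. Malat1 RNA gathers in nuclear speckles, and Neat1 RNA forms the core of paraspeckles. The Malat1 region (chr19:5796033-5804532) had a fold enrichment of 8.87 (6.50 to 11.8), its summit lay 162 bp upstream of the start, and the peak covered 95.1% of the gene. The Mof+/- list had a peak over it (chr19:5802624-5803531) with a fold enrichment of 6.75 (4.29 to 10.1). These intervals overlap. The Neat1 region (chr19:5837728-5851183) was the widest of the 542, at 13456 bp, with a fold enrichment of 7.73 (5.55 to 10.5), and 6 separate Mof+/- peaks lay over it, the strongest at 4.60 (2.65 to 7.51). That one was not at the Mof+/+ summit, which lay in another Mof+/- peak (chr19:5844485-5845260) with a fold enrichment of 3.22. Where several Mof+/- peaks lay over a region, the strongest is the one of highest −log10 p. In both genes the peak ran along the transcribed part as well as the start.

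Among the other named regions, Gm39556 had a fold enrichment of 8.39 (6.05 to 11.4), with its summit 3818 bp inside the gene in sequence of which 58.9% was masked as repeat. AI480526, beside the histone methyltransferase gene Setd1b at 1474 bp, had 7.96 (5.61 to 11.0) in Mof+/+ and 5.52 (3.34 to 8.65) in Mof+/-. Its Mof+/- peak (chr5:123137944-123138424) did not cover the Mof+/+ summit. Gm15326 had 7.52, Gm10433 had 6.86 and 4930481A15Rik had 6.56, each without a Mof+/- peak. Of the 12 strongest regions, 5 were overlapped by a Mof+/- peak and 7 were not. The overlapped share was 6.83% of the 542 regions and 2.44% of all Mof+/+ peaks. In the upper quartile of −log10 p it was 18% of the regions and 6.04% of all peaks. Of the same 12, 3 were island-like, and 7 had their summit within 250 bp of the start.

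Of the 542 regions, 32, at 26 different genes, had a microRNA hairpin in their noncoding gene or under the peak, on either strand, and at 5 the hairpin lay under the peak itself. The median fold enrichment of the 32 was 3.65, against 3.50 for all the regions, and 18 of them were above that value. The mature sequences of 9 of these microRNAs, taken from RefSeq for GRCm38, are shown because they are the products of the hosts described next. They are written 5′ to 3′ with the seed, bases 2 to 8, in capitals.
mmu-let-7a-5p, chr13:48538239-48538260 (minus strand): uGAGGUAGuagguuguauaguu
mmu-let-7f-5p, chr13:48537889-48537910 (minus strand): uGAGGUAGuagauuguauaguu
mmu-let-7d-5p, chr13:48536078-48536099 (minus strand): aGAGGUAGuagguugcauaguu
mmu-miR-17-5p, chr14:115043684-115043706 (plus strand): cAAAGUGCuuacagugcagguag
mmu-miR-20a-5p, chr14:115044183-115044205 (plus strand): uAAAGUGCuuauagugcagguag
mmu-miR-15a-5p, chr14:61632075-61632096 (minus strand): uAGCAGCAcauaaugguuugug
mmu-miR-16-5p, chr14:61631936-61631957 (minus strand): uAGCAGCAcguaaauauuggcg
mmu-miR-142a-3p, chr11:87756903-87756925 (plus strand): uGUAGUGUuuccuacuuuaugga
mmu-miR-155-5p, chr16:84714143-84714165 (plus strand): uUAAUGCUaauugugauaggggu

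The let-7 microRNAs above share the seed GAGGUAG, miR-17 and miR-20a share AAAGUGC, and miR-15a and miR-16 share AGCAGCA. The let-7 host 6720427I07Rik had a compact peak of 536 bp (chr13:48545974-48546509) with a fold enrichment of 7.74 (5.43 to 10.7), 147 bp downstream of the start and with 13.4 CpG per 100 bp. Its hairpins for let-7a, let-7f and let-7d lay 7702, 8057 and 9860 bp from the peak. Let-7 microRNAs are known for their part in timing of development and in restraint of growth. No Mof+/- peak covered it.

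Mir17hg, host of the miR-17 cluster that promotes proliferation, had a peak upstream of its annotated start (chr14:115040073-115042508), with a fold enrichment of 5.53 (3.62 to 8.12) in Mof+/+ and of 3.46 (1.96 to 5.74) in Mof+/-. It had 82.4% GC, the highest CpG density of the named regions, and its first hairpin lay 1163 bp beyond the peak. Dleu2, host of miR-15a and miR-16-1 and a gene lost in B cell leukaemia, carried 2 regions. One at its 5′ end (chr14:61680944-61690240) had its summit 5524 bp upstream of the start, outside annotated genes, and covered 1.80% of the gene. It had a fold enrichment of 6.85 (5.02 to 9.15) with 4 Mof+/- peaks over it, the strongest at 4.73. The other, at an internal start (chr14:61647117-61649570), had 5.97 (3.98 to 8.65) with 2 Mof+/- peaks, the stronger at 5.83.

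The host of miR-142, a microRNA of blood cells, had a peak of 7362 bp that ended short of the annotated gene (chr11:87747976-87755337). Its fold enrichment was 7.08 (4.88 to 9.95), in sequence with a CpG density equal to the median of distal peaks, and the miR-142 hairpin lay 1527 bp beyond it. Mir155hg, host of a microRNA that rises in activated lymphocytes and macrophages, had a narrow island-like peak of 320 bp with a fold enrichment of 3.54 (2.08 to 5.69). AW112010, a noncoding gene induced in inflammation, had one of 4.65 (2.92 to 7.05). None of these last 3 had a Mof+/- peak. Of 9 annotated genes listed as linked to immune cells, 4 were at the regions and the other 5 had no Mof+/+ peak, where 5.20% of all noncoding genes were at the regions and 16.3% had a peak. The tissue was whole fat: promoter peaks were present at 6 of 10 adipocyte marker genes (not at Fabp4, Lep, Cidec or Pparg), 7 of 8 B cell markers, 6 of 8 T cell markers, 1 of 8 macrophage markers (Cd68) and 1 of 8 endothelial markers (Pecam1), where 42.7% of all protein-coding genes had one. Lymphocyte markers thus had peaks at least as often as adipocyte markers in this list, and their part in the regions at immune-linked hosts was not tested. In whole tissue, fewer cells of a type and less MOF per cell cannot be told apart.

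Most hosts of small nucleolar RNAs, which guide the modification of ribosomal RNA, had a peak. Of 17 annotated genes of that list, 14 (82.4%) had a Mof+/+ peak at a start, against 16.3% of all noncoding genes, and 12 were at one of the 542 regions. Snhg3 and Snhg9 had peaks that also lay near a coding start, and Snhg10, Snhg14 and Snhg18 had none. Snhg8 had the highest fold enrichment of the list, 5.53 (3.62 to 8.12), followed by Snhg17 with 5.09, Snhg6 with 4.91, Snhg12 with 4.89, and Dancr and Snhg5 with 4.65 each. Snhg15 had 4.04, Snhg20 had 3.86, Gas5 3.19, Snhg1 3.13, Zfas1 2.88 and Epb41l4aos 2.65. The intervals of the first and the last, 3.62 to 8.12 and 1.44 to 4.58, overlap, so the order within the list is not resolved at these counts. Sequence at Snhg8, Snhg17, Snhg6, Snhg12, Dancr, Snhg5, Snhg20 and Epb41l4aos was island-like at the strongest summit. At Snhg15, Snhg1, Gas5 and Zfas1 it was not, and the summits of the last 2 lay 1089 and 1102 bp downstream of the start. No gene of the list had a Mof+/- peak, where 0.958% of all noncoding genes had one.

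Other lists gave different counts. Of 11 annotated genes listed as nuclear or broadly expressed, 8 had a Mof+/+ peak and 7 were at the regions, and 3 (27.3%) had a Mof+/- peak, where 0.958% of all noncoding genes had one. Besides Malat1, Neat1 and 1810026B05Rik these were Lncpint, a p53 target, with 4.87 (3.36 to 6.85) in Mof+/+ and 4.60 (2.65 to 7.51) in Mof+/-, 2900097C17Rik with 3.10, Pvt1, the neighbour of Myc, with 3.07, and Kcnq1ot1 with 2.34 (1.40 to 3.72). Kcnq1ot1, which silences genes of its imprinted domain in cis, was the only one of the 9 imprinted noncoding genes of the list with a peak (11.1%, against 16.3% of all noncoding genes). The genes Airn, H19, Meg3, Mirg, Nespas, Peg13, Rian and Snhg14 had none. None of 5 annotated genes listed as linked to adipose tissue (Ctcflos, Dnm3os, H19, Lncbate1 and Meg3) had a peak in either genotype, where 16.3% of all noncoding genes had a Mof+/+ peak and 0.958% a Mof+/- peak. The microRNA host list had a Mof+/+ peak within 1 kb of a start at 8 of 13 genes (61.5%, against 16.3% of all noncoding genes). A Mof+/- peak lay that near at 1, Dleu2 (7.69%, against 0.958%). The Mof+/- peak over the Mir17hg region did not come that near a start. Mir670hg (3.10) and Mir99ahg (3.10) were the remaining genes of the list at the regions.

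**Figure D3:**
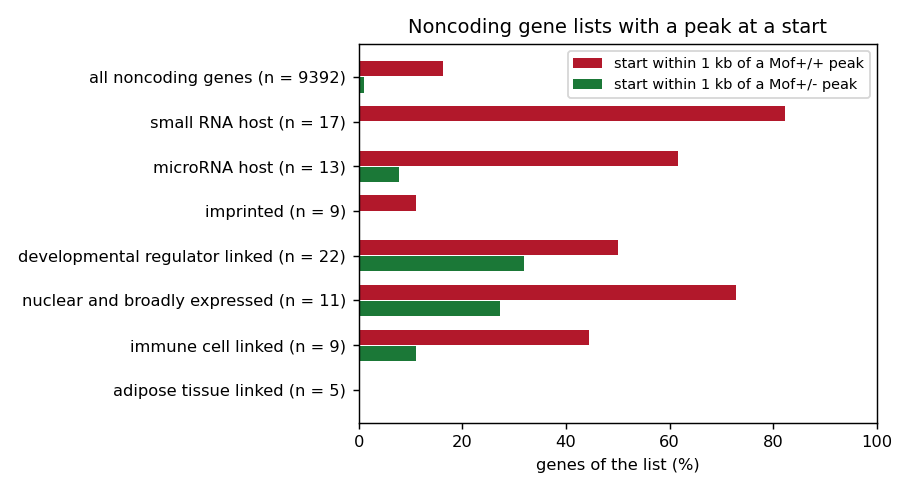
Share of annotated noncoding genes (%) with a start within 1 kb of a Mof+/+ peak (red) and of a Mof+/- peak (green), for all 9392 genes of the 5 types and for 7 lists of named genes, with the number of genes in each list. Small RNA hosts reached 82.4% in Mof+/+ and 0% in Mof+/-, and genes linked to developmental regulators 50% and 31.8%. Over all noncoding genes these shares were 16.3% and 0.958%.

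The Mof+/- list was far shorter, with 731 peaks, 712 of them on chromosomes 1 to 19. A Mof+/+ peak without a Mof+/- peak over it is therefore no measure of loss at that site. The lowest expected background at the summits compared was 3.52 fragments in Mof+/+ and 2.26 in Mof+/-. The lists thus also differed in background, and total depth is unknown from the files. Of the 542 regions, 37 shared at least 1 bp with a Mof+/- peak, which is 6.83% (95% Wilson interval 4.99 to 9.27%), where 2.44% of all Mof+/+ peaks on chromosomes 1 to 19 did (477 of 19579). The share was 2.91% (2.60 to 3.26%) at coding promoters, 5.17% (4.05 to 6.57%) where a coding and a noncoding start shared the peak, and 1.53% (1.30 to 1.81%) at distal peaks. At the 334 peaks near starts of other gene types only it was 4.49% (2.74 to 7.28%). The interval at noncoding starts lay above those of all coding promoters and of distal peaks, and it overlapped those of peaks shared by a coding and a noncoding start and of peaks at other gene types. The share depends on what counts as overlap: it was 1.29% (all peaks 0.623%) with at least 50% of both peaks covered, and 4.06% (all peaks 1.54%) with the summit inside the Mof+/- peak.

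Overlap moved with width. The 37 overlapped regions were 1745 bp wide at the median with a fold enrichment of 4.44, and the 505 others were 617 bp wide with 3.40. Among regions over 1040 bp, the upper quartile of width of all peaks, 29 of 159 (18.2%, 13.0 to 25.0%) were overlapped, against 7.34% (6.64 to 8.11%) of all peaks that wide and 7.17% of coding promoter peaks that wide. Among regions of 611 to 1040 bp it was 5 of 130 (3.85%, 1.65 to 8.69%) against 1.23%. For those of 398 to 610 bp it was 1 of 126 (0.794%) against 0.735%, and for those of up to 397 bp it was 2 of 127 (1.57%) against 0.448%. The higher share at noncoding starts was thus seen at like width in both classes above 610 bp, and in the narrower classes the counts were 1 and 2 regions. By strength the pattern was similar: in the upper quartile of −log10 p, 27 of 150 regions (95% Wilson interval 12.7 to 24.9%) were overlapped, against 6.04% of all peaks and 5.37% of coding promoter peaks.

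**Figure D4:**
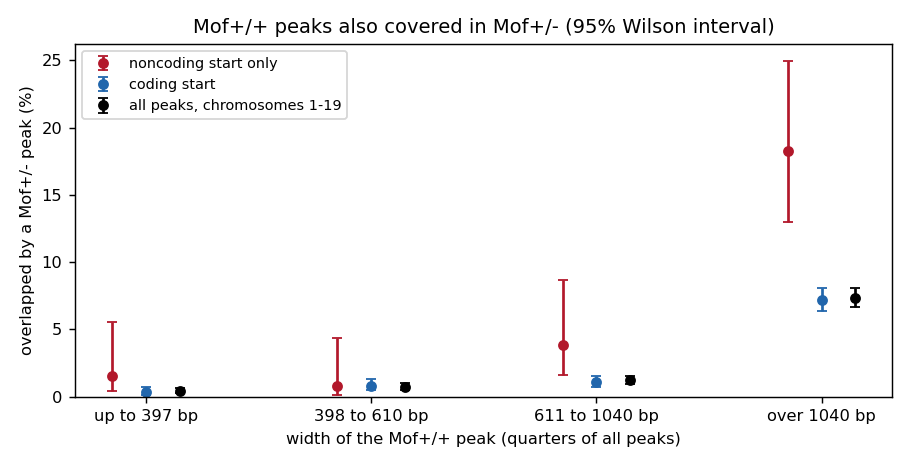
Share of Mof+/+ peaks (%) that share at least 1 bp with a Mof+/- peak in 4 classes of width, for the 542 regions at noncoding starts only, coding promoter peaks and all peaks, with 95% Wilson intervals as bars. Over 1040 bp the share was 18.2% at noncoding starts against 7.34% of all peaks, and below 611 bp the intervals overlap.

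The overlapped share was highest close to a coding start, but the intervals of the distance classes overlap. Of 57 regions with a coding start 1 to 2 kb away, 9 (15.8%, 8.54 to 27.4%) were overlapped, and of 82 at 2 to 5 kb, 10 (12.2%, 6.76 to 21.01%) were. The share was 4.76% (1.87 to 11.6%) of 84 regions at 5 to 10 kb, 4.62% (2.45 to 8.54%) of 195 at 10 to 50 kb and 4.03% (1.73 to 9.09%) of 124 beyond 50 kb. Island-like regions were overlapped in 11.2% and the others in 5.63%, with intervals of 6.67 to 18.2% and 3.81 to 8.25% that overlap.

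The nearest coding gene was described as a homeobox gene for 12 of the 542 regions, and 9 of those 12 (75.0%, 46.8 to 91.1%) were overlapped by a Mof+/- peak. Over all Mof+/+ peaks the same was true of 98 of 290 peaks (33.8%, 28.6 to 39.4%), so a homeobox neighbour went with overlap throughout the list. Without them, 28 of 530 regions (5.28%, 3.68 to 7.53%) were overlapped, against 1.96% (1.78 to 2.17%) of all peaks without such a neighbour. For a neighbour described as forkhead the count was 4 of 9 regions against 17 of 195 peaks. With homeobox, forkhead and the words transcription factor counted as one it was 16 of 39 regions (41.0%) against 153 of 883 peaks (17.3%), and outside them 21 of 503 regions (4.17%, 2.75 to 6.30%) against 1.73%. These words were chosen with the overlapped regions known.

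Hottip, the noncoding gene at the end of the Hoxa cluster that keeps its distal genes active, had the strongest of these regions. Its fold enrichment was 6.42 (4.34 to 9.17) in Mof+/+ and 3.96 (2.32 to 6.36) in Mof+/-, and the start of Hoxa13 lay 1036 bp away, just beyond the limit of the choice. Hoxa11os had 4.25 (2.65 to 6.52) and 3.21 (1.78 to 5.43). Dlx1as, antisense to the forebrain and limb regulator Dlx1, had a wide region of 7680 bp with 5.02 (3.32 to 7.33) in Mof+/+ and 4 Mof+/- peaks, the strongest at 5.52 (3.34 to 8.65). Dlx6os1 had 4.20 in Mof+/+ and 2 Mof+/- peaks, at 3.71 and 3.99. Gm20467, beside the homeobox gene Nkx2-3 of spleen and gut at 1283 bp, had 6.13 and 4.26, and 9130410C08Rik, beside Foxd2, had 5.75 and 5.21. Further homeobox neighbours, named after their values were seen, were at 8430419K02Rik (Meis1), Tlx1os (Tlx1), Vax2os (Vax2) and Gm34342 (Hlx). The 3 homeobox neighbours without a Mof+/- peak were Hoxb2 at Hoxb3os (3.32), Lhx2 at Gm27197 (2.90) and Barhl2 at Gm26872 (2.65).

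Sox2ot, which overlaps the pluripotency gene Sox2, had 2 regions. The first had a fold enrichment of 3.10 (1.75 to 5.14) and no Mof+/- peak. At the second, 13163 bp from the Sox2 start, the fold enrichment was 2.51 (1.56 to 3.85) in Mof+/+ and 6.06 (3.82 to 9.20) in Mof+/-, with intervals that barely overlap. Of the 22 annotated noncoding genes listed as linked to developmental regulators, 11 (50%) had a Mof+/+ peak at a start and 7 (31.8%) a Mof+/- peak. Among all noncoding genes these shares were 16.3% and 0.958%. The 7 were Dlx1as, Dlx6os1, Evx1os, Hottip, Hoxa11os, Lhx1os and Sox2ot, of which Evx1os and Lhx1os were not at the 542 regions because their peaks also lay near a coding start.

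At the 37 overlapped regions either genotype could have the higher value. The fold enrichment was higher in Mof+/+ at 19 and higher in Mof+/- at 18, and the counting intervals of both genotypes overlapped at all 37. This count depends on the 1 added to fragments and background, since the background was 3.70 fragments at the median in Mof+/+ and 2.26 in Mof+/-. As plain ratios, an alternative chosen after seeing the data, 14 were higher in Mof+/+ and 23 in Mof+/-, and the intervals overlapped at all but the second Sox2ot region. The 5 that turned were at Dleu2 (the internal start), Lncpint, 8430419K02Rik, Gm30177 and Gm11290, named after their values were seen. The median was 4.44 in Mof+/+ and 4.60 in Mof+/-, where the lowest value was 3.21 and the highest 6.75. Weaker Mof+/- sites, if any, are outside that comparison, since the list holds only what passed its threshold. Mof+/- peaks over the regions were narrower, at 414 bp against 1745 bp. These widths are not compared like for like: 7 of the 37 regions had more than 1 Mof+/- peak over them, and overlap moved with Mof+/+ width. Of the 37 pairs, 19 had summits within 250 bp of each other. At 22 the Mof+/+ summit lay inside a Mof+/- peak, so the 2 values of a pair need not come from 1 site. Besides those already given, Gm14205, near the vesicular GABA transporter gene Slc32a1, had 6.34 in Mof+/+ and 4.29 in Mof+/-, and Gm26615 had 5.97 and 3.75.

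**Figure D5:**
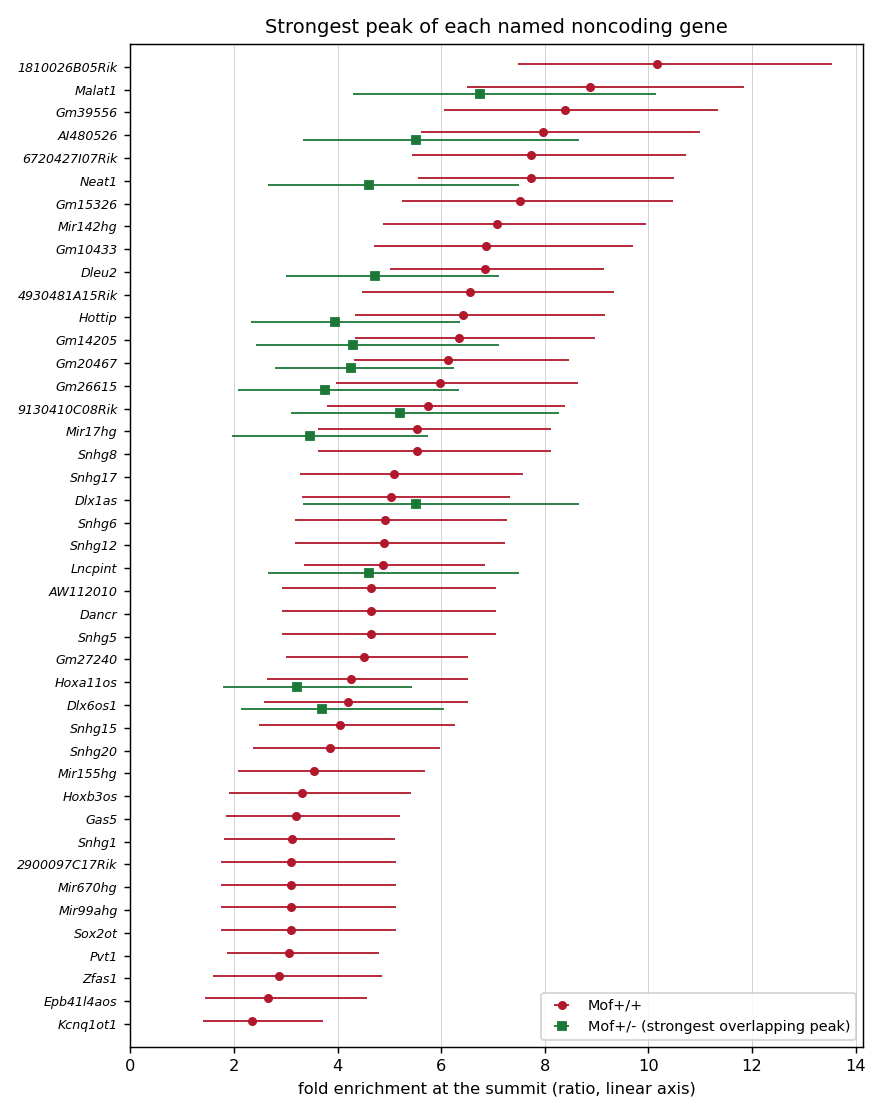
Fold enrichment at the summit (linear axis) of the strongest region of each named noncoding gene in Mof+/+ (red circles) and of the Mof+/- peak of highest −log10 p over it (green squares), with 95% exact Poisson intervals from the fragments. The red intervals are wide and overlap between neighbours, and where both genotypes are drawn their intervals overlap; the weaker Sox2ot region with a Mof+/- peak is not drawn.

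Width and base composition marked the remaining named regions. After Neat1, the widest were at Gm27240 (10769 bp, an antisense gene near Ets1, which encodes a transcription factor of lymphocytes), Dleu2 (9297 bp), Malat1 (8500 bp) and Dlx1as (7680 bp). Gm27240 had a fold enrichment of 4.50 (3.00 to 6.52) and no Mof+/- peak, and the other 4 of these 5 had one, as did 18.2% of the regions over 1040 bp and 7.34% of all peaks that wide. Within 250 bp to each side of the summit, 6 regions held no CpG, at Gm43388 (4.42), Gm28872 (3.98), AC166654.1 (3.32), AC141471.5 (2.94), Gm29282 (2.76) and Gm40608 (2.51). At Gm43388, Gm28872 and AC141471.5, 54.9%, 57.7% and 44.9% of those bases were masked as repeat, against a median of 9.78% over the 542. None of these 6 had a Mof+/- peak, where 5.63% of the regions that were not island-like had one.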

How the data were processed

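MOF ChIP-seq libraries had been mapped to GRCm38, and the authors called narrow peaks with MACS2 2.1.1.20160309.3 against input at a q-value threshold of 0.1, giving 1 deposited list per genotype. How the libraries of a genotype were combined is not given in the sources used here. The study's methods also name a later step that joined peaks of each cell type within 1000 bp. Of 19749 gaps between neighbouring peaks of the deposited Mof+/+ list, 3796 were that short, so that step had not been applied to it. The deposited columns were fold enrichment at the summit (a ratio, with 1 added to fragments and background), −log10 of the p-value and −log10 of the q-value, the summit's offset, and a display score that was not used. Fragments and background at each summit were recovered from the deposited fold and −log10 p (all 542 regions solved, and 19575 of 19579 peaks). They give the exact Poisson intervals. Starts were those of all GENCODE M21 transcripts, and distances ran from the peak's edge. Sequence was GRCm38.p6. Overlap meant at least 1 bp.

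Python 3.11.15, numpy 2.4.6, pandas 2.3.3, scipy 1.17.1 and pysam 0.24.0 were used, and the scripts were tested on simulated data. With 1 list per genotype no test was made. Histone H3 and input libraries and signal tracks were not analysed here. The regions named were the 12 of highest fold enrichment, the 12 of highest fold enrichment among those overlapped by a Mof+/- peak, all at genes of the 7 lists, the 5 widest and the 5 with fewest CpG (6 tied at 0, all named), each named after the noncoding gene whose start was nearest the summit. The regions, lists and words were chosen with earlier results of these data known.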

Additional observations from a re-analysis of the deposited data

Results flagged for a closer look

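Chromosome X was outside the choice of regions, but the same conditions found 6 Mof+/+ peaks there. They lay at C430049B03Rik (fold enrichment 5.53), Jpx (3.10), Ftx (3.10), Gm1720 (3.32), Gm15232 (2.71) and Gm15247 (3.68). Jpx and Ftx are noncoding genes of the X-inactivation centre. None of the 6 had a Mof+/- peak over it, where 2.44% of the Mof+/+ peaks on chromosomes 1 to 19 had one. They are set apart here because they are a signal in data that the comparisons did not use.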

How the results depend on the processing

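Of 47 alternative values, 38 stayed within 1.5 times the reported one (shares, inside its 95% Wilson interval) and 9 moved; no log2 ratio or difference of medians changed sign. As plain ratios, without the 1 that the peak caller adds, 14 in place of 19 of the 37 overlapped regions were higher in Mof+/+, so the majority turned to Mof+/-. The number of regions was 302 when the q-value limit was 0.001 and between 407 and 670 under the other settings. The overlapped share was 1.29% (all peaks 0.623%) when the overlap had to cover at least 50% of both peaks and 4.06% (all peaks 1.54%) when the summit had to lie inside the Mof+/- peak. It was 2.33% (6 of 257) for peaks of middle width (397 to 1040 bp), an alternative chosen after seeing the data, where all peaks gave 0.989%. With a q-value limit of 0.01 it was 7.37% against 2.52% of all peaks. The log2 ratio of median fold enrichment to coding promoters was -0.18 with a window of 2000 bp, -0.067 with the q-value limit of 0.001 and -0.17 with peaks merged within 1000 bp. The share over 10 kb from a coding start was 45.1%, no longer most of them, with gene starts only and 64.3% after merging. The cause was not tested. No paired analysis was possible because the lists, 1 per genotype, carry no replicate numbers, and for the same reason no replicate could be left out.

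Limits are the lack of values per replicate in the peak lists, the small number of fragments per summit, the unequal length of the lists, and the dependence of the set on annotation: starts that M21 does not hold leave a peak among the distal ones.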

Other observations

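The conditions applied to the Mof+/- list gave 46 of its 712 peaks on chromosomes 1 to 19 (6.46%). Of these, 36 overlapped one of the 542 regions and 40 overlapped any Mof+/+ peak. The 6 without any Mof+/+ peak were at Gm11535 (fold enrichment 4.37), Gm15722 (4.29), Gm16008 (4.16), Crnde (3.99), Gm26755 (3.88) and Gm42418 (2.28), named after their values were seen. The strongest of the 46 were at Gm26803, near Mef2c, and Malat1, both at 6.75, followed by St8sia3os at 6.13 and Sox2ot at 6.06. At Gm26803 the Mof+/+ fold enrichment was 4.42 (2.75 to 6.78) and the Mof+/- one 6.75 (4.29 to 10.1).

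At 5 regions the peak lay over microRNA hairpins themselves. One was at Gm26532, with the hairpins of miR-23a, miR-27a and miR-24-2 under it, and others at Gm3764 with miR-9-1, C130071C03Rik with miR-9-2, Gm15884 with miR-200c and 1810059C17Rik with miR-7655. They were named after their values were seen.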
